A study of Mus musculus with 36 samples.

Results

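Prdm1, Prdm14, Tfap2c, Ifitm3 and Itgb3 are 5 genes known from the founding of the mouse germ line, and their levels were followed in fetal gonads at 3 stages, namely 11.5, 12.5 and 13.5 days post coitum (dpc). The 5 genes, and the gene lists set beside them below, were chosen by symbol with earlier results of these data known. Each of the 5 was represented by 1 probe set among 19938 genes with a single annotated symbol on Affymetrix gene arrays. Germ cells and supporting cells were collected by fluorescence sorting from XX and XY gonads, which gave 12 groups of 3 arrays. Supporting cells are the somatic lineage that forms granulosa cells in the ovary and Sertoli cells in the testis. Levels are given on the log2 scale, on which a step of 1 is a doubling of signal, and levels of different genes are not set against each other because probe sets differ in brightness.

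Germ cells were sorted by an Oct4 reporter from progeny of C57BL/6NJ mice on a mixed background, at every stage and in both karyotypes. XX supporting cells at every stage, and XY supporting cells at 11.5 dpc, came from the Tg(Sry-EGFP)92Ei line and were progeny of CD-1 mice. XY supporting cells at 12.5 and 13.5 dpc came from the Tg(Sox9-cre/ERT2)1Msan/J line and were progeny of C57BL/6 mice. The karyotype of supporting cells at these 2 later stages, and the step of XY supporting cells from 11.5 dpc to either, therefore cannot be told apart from the reporter line and strain. Germ and supporting cells shared no reporter line at any stage, so cell type cannot be told apart from line and strain either. Gonads of several fetuses were pooled by sex before sorting. In bulk samples, fewer cells of a type and less RNA per cell cannot be told apart. No label says whether arrays of 1 group derive from different pools, so the p-values reflect the variation among these samples, and that variation may be technical alone.

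Primordial germ cells arise from the epiblast when BMP and WNT signals switch on a small set of regulators. PRDM1 (BLIMP1) represses the somatic programme, PRDM14 restores pluripotency genes and promotes epigenetic reprogramming, and TFAP2C (AP-2 gamma) acts downstream of PRDM1. IFITM3 (fragilis) and the integrin subunit ITGB3 (CD61) are surface proteins used to recognise early germ cells. By the stages sampled here, germ cells have reached the gonad, and over the following days those of the ovary enter meiosis while those of the testis cease dividing.

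The array labelled as XX germ cells at 12.5 dpc, replicate 3, went against its label and was left out of every value below unless stated. Over 10 germ cell markers its median level was 5.58, against 9.52 to 11.22 in the other 17 germ cell arrays and 5.25 to 6.49 in the 18 supporting cell arrays. Its median was 9.80 over 8 supporting cell markers and 9.74 over 8 stromal markers, against at most 7.47 for the stromal markers in any other array. In that array Prdm1 stood at 5.49, Prdm14 at 6.05, Tfap2c at 6.01, Itgb3 at 7.15 and Ifitm3 at 11.29. The XX germ cell group at 12.5 dpc thus held 2 arrays. In the remaining germ cell arrays the supporting cell markers had a median of 6.46 to 7.35, against 9.07 to 9.68 in supporting cells at 13.5 dpc. Array medians ranged from 6.54 to 7.01, and within a group the arrays correlated at 0.967 to 0.995 across genes.

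All 5 genes were higher in germ cells than in supporting cells at each stage (limma, Benjamini-Hochberg adjusted p under 0.05). Among all genes tested, 24.1% were higher in germ cells at 11.5 dpc, 19.2% at 12.5 dpc and 19.7% at 13.5 dpc. Prdm1, the zinc finger repressor, differed by 3.69 ± 0.15 (SE) at 11.5 dpc (adjusted p = 1.13e-26), which is a 12.9-fold difference, by 3.52 ± 0.16 at 12.5 dpc and by 3.11 ± 0.15 at 13.5 dpc. Ifitm3 differed by 2.26 ± 0.18, 3.37 ± 0.19 and 2.98 ± 0.18. Once sets of table rows that sit on different scales, described further on, were aligned, its difference at 13.5 dpc (2.96) was above that of Prdm1 (2.85). Each cell type is here the mean of its XX and XY groups. At 13.5 dpc Ifitm3 averaged 10.82 in XX and 7.18 in XY supporting cells, against 11.86 and 12.11 in germ cells. Prdm1 averaged 5.51 and 5.45 in supporting cells, against 8.18 and 9.01 in germ cells. The other 4 genes differed by 1.61 to 2.47 at 11.5 dpc. The germ cell lead of Tfap2c was 2.47 ± 0.19 at 11.5 dpc, 1.79 ± 0.20 at 12.5 dpc and 0.80 ± 0.19 at 13.5 dpc (limma adjusted p = 6.21e-04), and that of Prdm14 was 1.89 ± 0.15, 1.82 ± 0.16 and 1.15 ± 0.15. The change of this lead between stages was not tested. In all of these comparisons cell type goes together with reporter line and strain. The plot of levels per array shows the order of the groups.

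**Figure D1:**
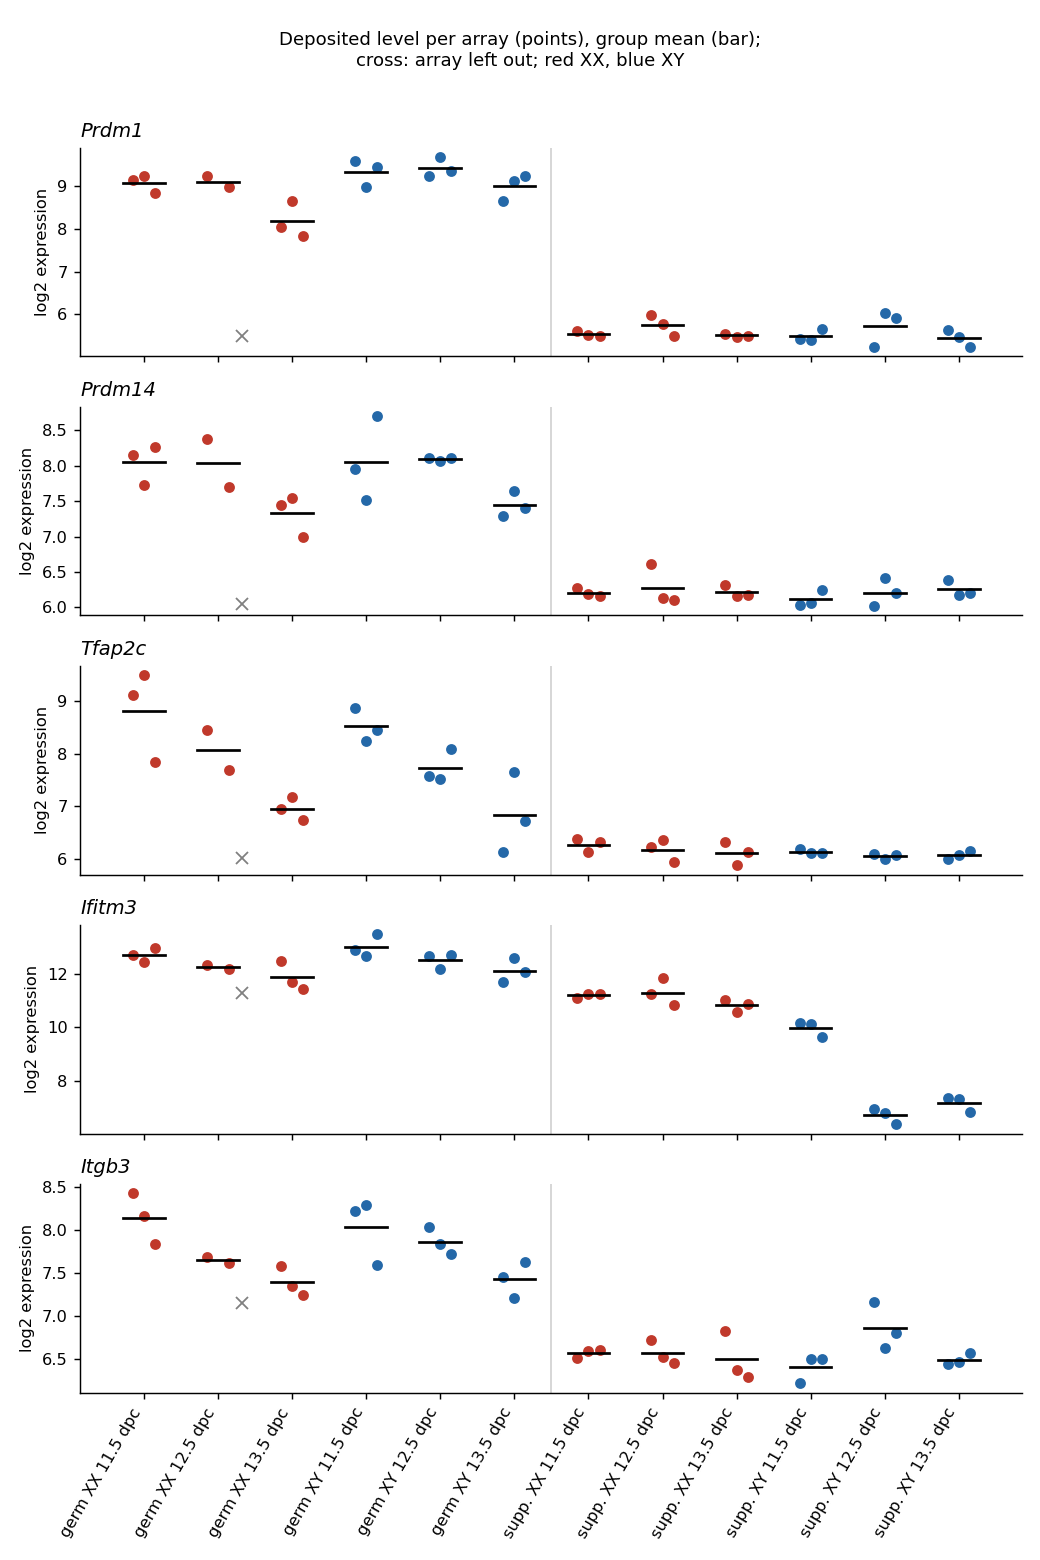
Deposited log2 level (y axis) of each gene in each of the 12 groups (x axis), with red points for XX arrays, blue points for XY arrays, a black bar for the group mean and a grey cross for the array left out. Prdm1 and Prdm14 separate all germ cell from all supporting cell arrays, Tfap2c drops towards the supporting cell level by 13.5 dpc, and Ifitm3 is high in XX but not in later XY supporting cells.

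Prdm1 stood at 9.14, 9.24 and 8.83 in the 3 arrays of XX germ cells at 11.5 dpc, at 9.23 and 8.98 in the 2 arrays at 12.5 dpc, and at 8.05, 8.65 and 7.83 at 13.5 dpc. In XY germ cells it stood at 9.59, 8.98 and 9.45 at 11.5 dpc, at 9.23, 9.68 and 9.35 at 12.5 dpc, and at 8.65, 9.13 and 9.23 at 13.5 dpc. XX germ cells at 13.5 dpc were therefore the lowest germ cell group, and their highest array equalled the lowest XY array of the same stage at 2 decimals. All 18 supporting cell arrays lay between 5.24 and 6.03, below every germ cell array, and the 6 supporting groups overlapped each neighbour in the order of means.

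Prdm14, which encodes the second PR domain factor, stood at 8.15, 7.73 and 8.27 in XX germ cells at 11.5 dpc, at 8.38 and 7.70 at 12.5 dpc, and at 7.45, 7.55 and 6.99 at 13.5 dpc. The XY germ cell arrays gave 7.95, 7.51 and 8.70 at 11.5 dpc, then 8.11, 8.06 and 8.11, and finally 7.29, 7.65 and 7.40. Its 4 germ cell groups at 11.5 and 12.5 dpc had means of 8.04 to 8.09 and overlapped each neighbour, while the groups at 13.5 dpc averaged 7.45 in XY and 7.33 in XX cells. Supporting cell arrays lay between 6.02 and 6.61, below every germ cell array.

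Tfap2c stood at 9.11, 9.49 and 7.84 in XX germ cells at 11.5 dpc, at 8.45 and 7.69 at 12.5 dpc, and at 6.94, 7.17 and 6.73 at 13.5 dpc. Its XY germ cell values were 8.87, 8.24 and 8.45 at 11.5 dpc, then 7.57, 7.51 and 8.09, and then 6.13, 7.65 and 6.71. Its arrays spread more than those of Prdm1, and 1 XY germ cell array at 13.5 dpc fell within the supporting cell range of 5.88 to 6.37. The group means ran down from 8.82 and 8.52 at 11.5 dpc through 8.07 and 7.72 at 12.5 dpc to 6.95 and 6.83 at 13.5 dpc, in XX and XY cells in turn.

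Itgb3, whose product pairs with an alpha integrin at the cell surface, stood at 8.43, 8.17 and 7.84 in XX germ cells at 11.5 dpc, at 7.69 and 7.62 at 12.5 dpc, and at 7.58, 7.35 and 7.25 at 13.5 dpc. XY germ cells were at 8.23, 8.29 and 7.60 at 11.5 dpc, then at 8.04, 7.84 and 7.73, and then at 7.46, 7.21 and 7.63. Supporting cells lay between 6.22 and 7.17. The highest supporting array, in XY cells at 12.5 dpc, was just below the lowest germ cell array, at 7.21. Platelets also carry this integrin subunit, and the median of 5 measured megakaryocyte or platelet markers was 6.18 to 6.84 in germ cells and 6.24 to 7.13 in supporting cells.

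Ifitm3, an interferon-inducible membrane protein gene, stood at 12.68, 12.44 and 12.96 in XX germ cells at 11.5 dpc, at 12.31 and 12.16 at 12.5 dpc, and at 12.46, 11.69 and 11.43 at 13.5 dpc. In XY germ cells it stood at 12.86, 12.65 and 13.46, then at 12.65, 12.18 and 12.70, and then at 11.68, 12.59 and 12.06. The 9 arrays of XX supporting cells lay between 10.56 and 11.82, below every XX germ cell array of the same stage, with means of 11.19, 11.29 and 10.82 against 12.70, 12.23 and 11.86. The highest of them, at 12.5 dpc, lay above the lowest germ cell arrays of 13.5 dpc. Its XY supporting cells are described further on.

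From 11.5 to 13.5 dpc, all 5 genes fell in XX germ cells and 3 fell in XY germ cells. Among all genes, 9.45% were lower in the XX comparison and 4.19% in the XY comparison. Tfap2c fell furthest, by 1.87 ± 0.27 in XX cells (limma adjusted p = 8.03e-07), a 3.65-fold drop, and by 1.69 ± 0.27 in XY cells (adjusted p = 9.39e-06), a 3.23-fold drop. In neither karyotype did the arrays of Tfap2c at 13.5 dpc overlap those at 11.5 dpc. The median over all genes moved by -0.14 in XX cells and by -0.03 in XY cells, so the falls are larger than the general shift.

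In XX germ cells Prdm1 fell by 0.89 ± 0.21 (limma adjusted p = 0.00163), Prdm14 by 0.72 ± 0.21 (adjusted p = 0.0146), Ifitm3 by 0.84 ± 0.25 (adjusted p = 0.0135) and Itgb3 by 0.75 ± 0.20 (adjusted p = 0.00407). For Prdm1, Prdm14 and Itgb3 every array at 13.5 dpc lay below every array at 11.5 dpc, whereas Ifitm3 overlapped through its first array. In XY germ cells Ifitm3 fell by 0.88 ± 0.25 (adjusted p = 0.0173) and Itgb3 fell by 0.61 ± 0.20 (adjusted p = 0.0458). Prdm14 differed by -0.61 ± 0.21 (adjusted p = 0.0808) and Prdm1 by -0.33 ± 0.21 (adjusted p = 0.529, 95% interval -0.76 to 0.09). The calls of Tfap2c in both karyotypes, and of Prdm1 in XX cells, held when any single array was left out. The others each lost their call without certain arrays. In XX cells Prdm14 did so without replicate 1 or 3 at 11.5 dpc or replicate 3 at 13.5 dpc (adjusted p up to 0.148), Ifitm3 without replicate 3 at 11.5 dpc or replicate 2 or 3 at 13.5 dpc (up to 0.152), and Itgb3 without replicate 1 at 11.5 dpc (0.0532). Among XY cells Ifitm3 did so without replicate 3 at 11.5 dpc or replicate 1 or 3 at 13.5 dpc (up to 0.226), and Itgb3 without replicate 1 or 2 of either stage (up to 0.223). Prdm14 passed in XY cells without replicate 2 at 11.5 dpc (-0.88, adjusted p = 0.00819) and with arrays centred (-0.57, adjusted p = 0.0379). Keeping the array with contrary markers also ended the calls of Prdm1 and Prdm14 in XX cells and of Ifitm3 and Itgb3 in XY cells, array weights that of Ifitm3 in XY cells (0.0502), and quantile normalization (0.0586) or a fit of only the compared arrays (0.205) that of Itgb3 in XY cells.

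The deposited values carry an arrangement that no label describes. In each array the rows of the table fall into interleaved sets that sit on slightly different scales, up to 0.751 apart in median within an array. With these sets aligned, Prdm1 fell by 1.10 ± 0.12 and Prdm14 by 1.03 ± 0.12 in XX germ cells, and Prdm14 fell by 0.44 ± 0.12 in XY germ cells (limma adjusted p = 0.0102), while Prdm1 differed by -0.22 ± 0.12 there (adjusted p = 0.258). The fall of Itgb3 in XX cells shrank from 0.75 to 0.36 ± 0.11 (adjusted p = 0.0225). The other calls of these 2 comparisons held after alignment, and the standard error went from 0.21 to 0.12 for Prdm1 and from 0.27 to 0.26 for Tfap2c. Of all genes, alignment took the share called in either direction from 15.3% to 20.9% in XX and from 7.09% to 14.1% in XY cells.

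**Figure D2:**
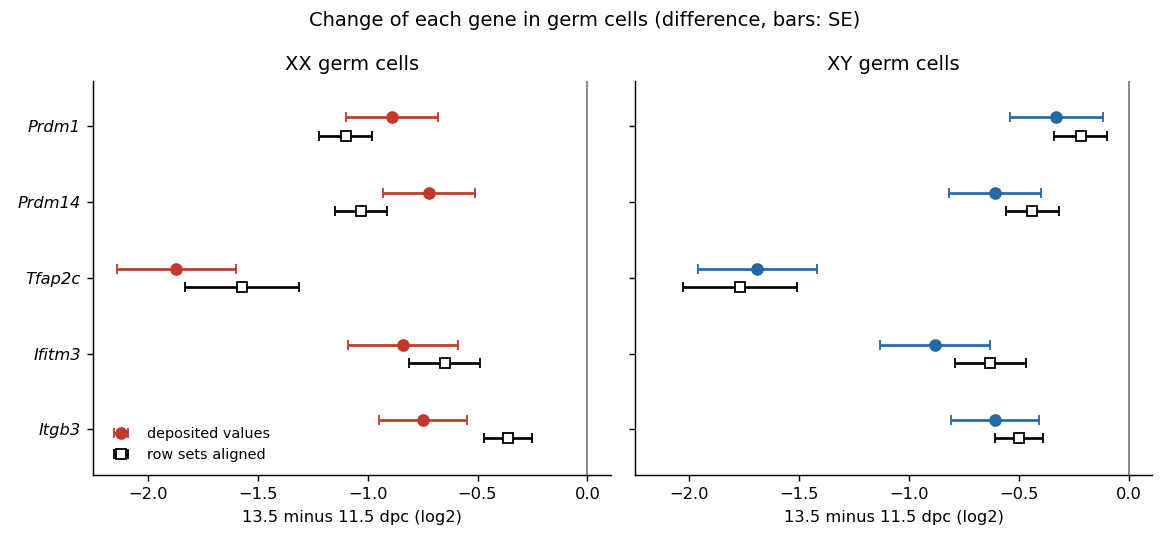
Difference between 13.5 and 11.5 dpc (x axis, log2) for each gene (y axis) in XX germ cells at left and XY germ cells at right, with filled circles for deposited values, open squares for values with row sets aligned and bars for the standard error. Every point lies left of 0, Tfap2c lies furthest left in both karyotypes, and Prdm1 lies nearer to 0 in XY than in XX cells.

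Few steps of a single day passed the test. No gene of the 5 passed between 11.5 and 12.5 dpc in XX germ cells, where 1.15% of all genes did, or in XY germ cells, where 1.31% did. At an unadjusted p under 0.05 there were 2 genes in XX and 1 in XY cells in limma. The Tfap2c differences of that step were -0.75 ± 0.30 in XX and -0.80 ± 0.27 in XY cells (adjusted p = 0.272 and 0.188), and the XX difference was called when XX replicate 3 at 11.5 dpc was left out (-1.23, adjusted p = 0.0186) or the array with contrary markers was kept (-1.43, adjusted p = 0.0356). Tfap2c passed in XY cells with row sets aligned (-1.01, adjusted p = 0.0309) and in a fit of only the compared arrays (-0.80, adjusted p = 0.0481).

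Between 12.5 and 13.5 dpc, Prdm1 fell in XX germ cells by 0.93 ± 0.24 (limma adjusted p = 0.009) and Tfap2c by 1.12 ± 0.30 (adjusted p = 0.0143), in a step in which 6.75% of all genes fell. Prdm14 differed by -0.71 ± 0.24 (adjusted p = 0.055). Both calls were lost without XX replicate 1 at 12.5 dpc or XX replicate 3 at 13.5 dpc. With row sets aligned, Prdm1 and Prdm14 passed (adjusted p = 6.13e-06 and 1.41e-04) and Tfap2c did not (-0.73, adjusted p = 0.164), while 7.25% of all genes passed in either direction. In XY germ cells none of the 5 passed in that step in limma, against 2.38% of all genes, although 3 had an unadjusted p under 0.05. Prdm14 differed by -0.65 ± 0.21 there (adjusted p = 0.115) and passed with row sets aligned (-0.79, adjusted p = 6.20e-05). Tfap2c differed by -0.90 ± 0.27 (adjusted p = 0.0666) and passed without XY replicate 2 at 13.5 dpc (-1.31, adjusted p = 0.0027) or in a fit of only the compared arrays (adjusted p = 0.0168).

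None of the 5 genes passed between XX and XY germ cells at 11.5 dpc, where 0.0251% of all genes differed, or at 12.5 dpc, where 1.80% did. In limma 0 of the 5 had an unadjusted p under 0.05 at either stage. At 13.5 dpc only Prdm1 differed, being higher in XY germ cells by 0.83 ± 0.21 (adjusted p = 0.00579), a 1.78-fold difference, where 5.28% of all genes were higher in XY cells. The other 4 genes differed by -0.12 to 0.25, with adjusted p-values of 0.653 to 0.943. The Prdm1 call was lost without XX replicate 3 (0.66, adjusted p = 0.0948) or XY replicate 3 (0.72, adjusted p = 0.0586) at 13.5 dpc. It was also lost when the array with the contrary markers was kept (adjusted p = 0.369), which widened the shared spread. With row sets aligned Prdm1 differed by 0.89 ± 0.12 (adjusted p = 2.32e-06) and Prdm14 also passed, at 0.34 ± 0.12 (adjusted p = 0.0457). The share of all genes called in either direction went from 9.21% to 17.3% with alignment.

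The karyotype difference at 13.5 dpc was set against that at 11.5 dpc in a direct test. None of the 5 passed in limma, at an adjusted or an unadjusted p under 0.05, while 3.24% of all genes passed. For Prdm1 the XY minus XX difference at 13.5 dpc exceeded that at 11.5 dpc by 0.56 ± 0.30 (adjusted p = 0.445, 95% interval -0.04 to 1.17). With row sets aligned the widening was 0.87 ± 0.17 for Prdm1 (adjusted p = 8.90e-04) and 0.59 ± 0.17 for Prdm14 (adjusted p = 0.0251), while 7.66% of all genes passed. Whether the fall of Prdm1 was larger in XX than in XY germ cells thus turned on the row sets.

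Markers were read over the same days. Of the 10 germ cell markers 5 rose and 4 fell in XX germ cells in limma (5 and 3 with row sets aligned), and 4 rose and 0 fell in XY germ cells. Over all 19938 genes, 1162 rose and 1885 fell in XX cells, and 579 rose and 835 fell in XY cells. With row sets aligned 20.9% of all genes passed in XX and 14.1% in XY cells. Those that fell in XX cells were Dppa5a and, also among the downstream genes described next, Nanos3, Dnd1 and Pou5f1, and those that rose were Mael, Sycp3, Tdrd1, Ddx4 and Dazl. The median over the 10 was 9.83 to 9.87 in XX and 9.52 to 10.11 in XY cells at 11.5 dpc against 10.70 to 11.22 and 10.52 to 10.97 at 13.5 dpc. The 8 supporting cell markers had medians of 6.59 to 7.14 in XX and 6.86 to 7.16 in XY germ cells at 11.5 dpc, and of 6.46 to 7.02 and 6.54 to 6.91 at 13.5 dpc. Of these 8 markers 0 passed in XX germ cells over time in limma (0 at an unadjusted p under 0.05, and Wt1 lower with row sets aligned) and 1, Amhr2, fell in XY germ cells. The part of other cells in the germ cell values was not tested.

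Genes known to act downstream of these factors moved in a similar direction. Of 14 early germ cell and pluripotency genes, 13 were higher in germ than in supporting cells at 11.5 dpc, with a median difference of 3.25 against 0.11 over all genes. They included Pou5f1, the pluripotency factor whose reporter was used for the sort (6.14 ± 0.18), Dppa3, the maternal chromatin factor Stella (5.21 ± 0.18), and Sox2 (4.90 ± 0.15). From 11.5 to 13.5 dpc, 10 of the 14 fell in XX germ cells and 8 in XY germ cells, with 0 rising in either, and median differences of -1.15 and -0.73. The shares of all genes that fell were 9.45% in XX and 4.19% in XY germ cells. Nanog, a pluripotency factor, fell by 2.25 ± 0.24 in XX and 1.65 ± 0.24 in XY cells.

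At 13.5 dpc 6 of the 14 were higher and 2 lower in XY than in XX germ cells. Over all 19938 genes, 1053 were higher and 784 lower. Nanos3, an RNA-binding protein gene needed for germ cell survival, fell by 1.87 ± 0.22 in XX cells and differed by 0.03 ± 0.22 in XY cells, so that XY cells stood higher by 1.84 ± 0.22 (limma adjusted p = 9.29e-09). Zfp42 (REX1) stood higher by 1.47 ± 0.22 and Dppa4 by 1.37 ± 0.24 in XY cells. Kit, the stem cell factor receptor gene, and Alpl, the tissue alkaline phosphatase used to stain early germ cells, were the 2 genes lower in XY cells, by -0.90 ± 0.21 and -0.83 ± 0.24. In the direct test of the change between stages, 4 of the 14 passed towards XY cells and 1 towards XX cells (5 and 2 with row sets aligned). Over all genes 315 passed towards XY and 330 towards XX cells without alignment. The share that passed in either direction went from 3.24% to 7.66% with it. The difference grew towards XY cells for Nanos3 by 1.90 ± 0.30 (limma adjusted p = 4.50e-05), for Zfp42 by 1.44 ± 0.32, for Dppa4 by 1.37 ± 0.34 and for Dnd1 by 1.29 ± 0.34, and moved towards XX cells for Kit, by -1.06 ± 0.30.

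**Figure D3:**
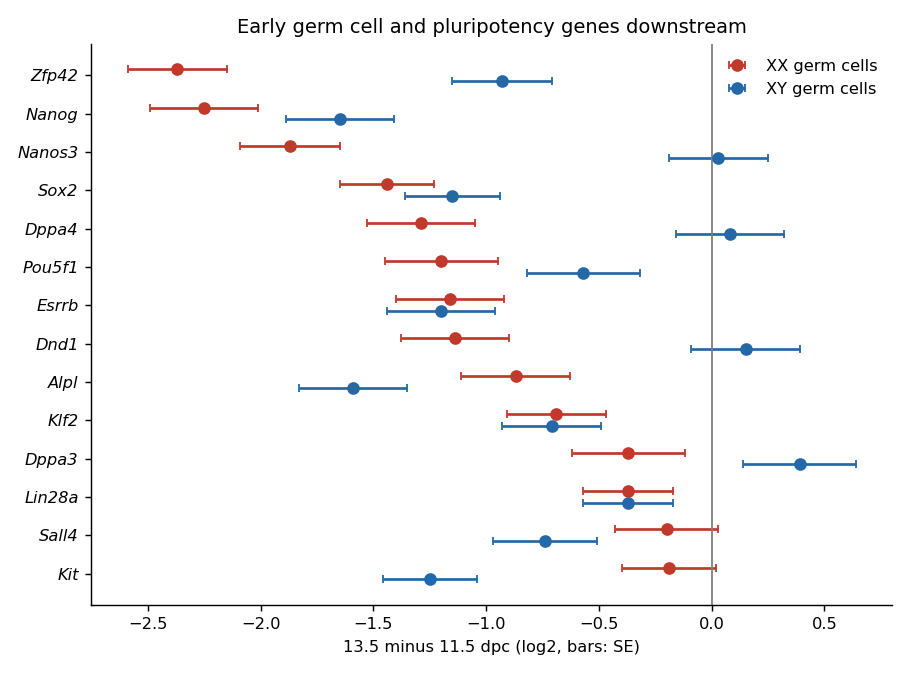
Difference between 13.5 and 11.5 dpc (x axis, log2, bars for the standard error) of the 14 early germ cell and pluripotency genes (y axis), with red points for XX and blue points for XY germ cells. Zfp42, Nanog and Nanos3 fell furthest in XX cells, while Nanos3, Dppa4 and Dnd1 lie near 0 in XY cells.

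The 6 partners of PRDM1 and PRDM14 were all higher in germ cells at 11.5 dpc, where 24.1% of all genes were, with a median difference of 1.38. Prmt5, the arginine methyltransferase that works with PRDM1, led by 1.35 ± 0.14, its cofactor Wdr77 by 1.60 ± 0.15, the PRDM14 corepressor Cbfa2t2 by 1.40 ± 0.17 and Eed, a Polycomb subunit, by 1.47 ± 0.15. From 11.5 to 13.5 dpc 3 of the 6 fell in XX germ cells, against 9.45% of all genes. They were Prmt5 by 0.72 ± 0.20, Wdr77 by 0.67 ± 0.21 and Suz12 by 0.57 ± 0.20. In XY germ cells, where 4.19% of all genes fell, 1 of the 6 did, Ezh2, by 0.69 ± 0.22 (limma adjusted p = 0.0424). With row sets aligned these counts were 4 in XX cells, with Wdr77 lost (adjusted p = 0.224) and Cbfa2t2 and Eed gained, and 3 in XY cells, with Cbfa2t2 and Eed gained. The share of all genes called in either direction went from 15.3% to 20.9% in XX and from 7.09% to 14.1% in XY cells. At 13.5 dpc Prmt5 and Wdr77 were higher in XY germ cells, by 0.76 ± 0.20 and 0.72 ± 0.21, where 5.28% of all genes were higher. After alignment Prmt5 kept its call (0.94), Wdr77 did not (0.47, adjusted p = 0.0581), and Ezh2 was lower in XY cells (-0.56, adjusted p = 4.66e-04). Of all genes 17.3% were then called in either direction, against 9.21% before.

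Of 12 measured inducing signals, receptors and mediators, 3 were lower in germ cells at 11.5 dpc and 0 higher. Over all 19938 genes, 2195 were lower and 4812 higher in that comparison. The 3 from the list were Bmp2, a BMP ligand (-2.19 ± 0.14), Bmpr2, a BMP receptor (-1.60), and Smad5, a BMP signal transducer (-1.23). With row sets aligned 6 were lower, with Bmp8b, Smad1 and Smad4 added. The share of all genes called in either direction went from 35.1% to 48.8% with alignment. At 12.5 dpc 4 were lower and 2 higher, and at 13.5 dpc 2 were lower and 2 higher, Bmp4 and Wnt3 being higher at both stages. Over all genes 3072 were lower and 3828 higher at 12.5 dpc, and 2851 and 3923 at 13.5 dpc. Bmp4, the ligand best known for inducing germ cells, rose by 1.35 ± 0.22 in XY germ cells between 11.5 and 13.5 dpc (limma adjusted p = 1.31e-05), differed by 0.21 ± 0.22 in XX cells and was higher in XY than XX cells at 13.5 dpc by 1.23 ± 0.22. Smad5 rose by 0.82 in XX cells and Wnt3, a WNT ligand, by 0.64 in XY cells.

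Genes known to be held down during specification did not move as 1 group. Of 12 measured, 3 were lower in germ than in supporting cells at 11.5 dpc, namely Myc (-1.30) and the DNA methyltransferase genes Dnmt3a (-0.92) and Dnmt3b (-0.69), and Fgfr1, a growth factor receptor gene, was higher (1.19). After alignment 6 were lower, with Uhrf1, Ehmt1 and Fgfr2 added. Over all 19938 genes, 2195 were lower and 4812 higher at that stage without alignment. With it 48.8% of all genes were called in either direction, against 35.1% without it. Uhrf1, which recruits the maintenance DNA methyltransferase, rose between 11.5 and 13.5 dpc by 1.25 ± 0.22 in XX and 1.03 ± 0.22 in XY germ cells. Fgfr2 fell by 1.27 ± 0.23 in XX cells and differed by 0.41 ± 0.23 in XY cells, and Fgfr1 fell by 0.92 in XY cells. Of these 12 genes 1 rose and 1 fell in each karyotype, and with row sets aligned 2 rose and 2 fell in XX cells and 2 rose and 1 fell in XY cells. The share of all genes that passed in either direction was 15.3% in XX and 7.09% in XY cells, and 20.9% and 14.1% with alignment.

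Relatives of the 5 genes were read in the same comparisons. Among 11 other PRDM genes measured, Prdm9, which marks meiotic recombination sites, rose by 3.21 ± 0.24 in XX germ cells from 11.5 to 13.5 dpc (limma adjusted p = 1.36e-14) and was lower in XY than in XX cells at 13.5 dpc by -2.85 ± 0.24. Prdm10 fell by 0.92 in XX cells and differed by -0.62 in XY cells (adjusted p = 0.0616, passing with row sets aligned), and Prdm4 and Prdm10 were higher in germ than in supporting cells at 11.5 dpc, by 1.07 and 0.65. These were 2 of the 11, in a comparison in which 24.1% of all genes were higher. None of the 4 other AP-2 genes passed in limma from 11.5 to 13.5 dpc in germ cells, between karyotypes at 13.5 dpc, or between germ and supporting cells at 11.5 dpc, with 1 at an unadjusted p under 0.05 in XX germ cells over time and 0 in the other 3 comparisons. Of all genes 15.3% passed over time in XX and 7.09% in XY germ cells, 9.21% between karyotypes and 35.1% between cell types. At 13.5 dpc 1 AP-2 gene was higher in germ than in supporting cells, where 19.7% of all genes were, a call lost with row sets aligned. From 11.5 to 12.5 dpc in XX germ cells, and between germ cell karyotypes at 12.5 dpc, 0 AP-2 genes passed, with 2 at an unadjusted p under 0.05 in each. Of all genes 1.15% and 1.80% passed.

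Among 11 integrin subunits and ligands measured beside Itgb3, 4 were lower and 1 higher in germ cells at 11.5 dpc, and 6 and 1 with row sets aligned. The counts over all 19938 genes were 2195 lower and 4812 higher without alignment. Alignment took the share called in either direction from 35.1% to 48.8%. Fn1, which encodes the ligand fibronectin, was higher by 3.82, while the subunit genes Itga6 and Itgb5 were lower by -3.77 and -2.62. While Itgb3 fell in germ cells, Itgb5 rose by 1.42 in XX and 1.63 in XY cells and Itga6 by 1.19 and 1.78. Itgav, the alpha subunit gene whose product can pair with ITGB3, fell by 0.97 in XY cells and with row sets aligned also in XX cells (-0.82), and Fn1 fell by 0.81 in XX cells, a call lost with row sets aligned (adjusted p = 0.0505).

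Ifitm3 was the only one of the 5 that differed between XX and XY supporting cells. It stood at 11.10, 11.25 and 11.22 in XX supporting cells at 11.5 dpc, at 11.23, 11.82 and 10.82 at 12.5 dpc, and at 11.03, 10.56 and 10.88 at 13.5 dpc. In XY supporting cells it stood at 10.17, 10.12 and 9.63 at 11.5 dpc, at 6.97, 6.79 and 6.39 at 12.5 dpc, and at 7.36, 7.32 and 6.86 at 13.5 dpc. The karyotypes did not overlap at any stage. Ifitm3 was lower in XY cells by -1.21 ± 0.25 at 11.5 dpc (limma adjusted p = 8.95e-04, a 2.32-fold difference), by -4.57 ± 0.25 at 12.5 dpc (adjusted p = 1.08e-20, 23.8-fold) and by -3.64 ± 0.25 at 13.5 dpc (adjusted p = 5.04e-17, 12.5-fold). Among all genes, 1.71%, 4.89% and 5.02% were lower in XY supporting cells at these stages.

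The difference at 11.5 dpc lies within a single reporter line and strain, while those at 12.5 and 13.5 dpc lie across lines. In XY supporting cells Ifitm3 fell by 3.26 ± 0.25 from 11.5 to 12.5 dpc (limma adjusted p = 1.22e-14), where 1.49% of all genes fell and the median gene moved by 0.21, and by 2.80 ± 0.25 from 11.5 to 13.5 dpc (adjusted p = 1.12e-12), where 2.27% fell. Within the Sox9 line none of the 5 passed from 12.5 to 13.5 dpc, against 0.918% of all genes and with 0 at an unadjusted p under 0.05, and Ifitm3 differed by 0.46 ± 0.25 (adjusted p = 0.41). In XX supporting cells none of the 5 passed from 11.5 to 13.5 dpc in limma, against 4.10% of all genes and with 0 at an unadjusted p under 0.05, and Ifitm3 differed by -0.37 ± 0.25 (adjusted p = 0.795). The karyotype difference of Ifitm3 grew by -2.43 ± 0.35 from 11.5 to 13.5 dpc (adjusted p = 1.49e-06), a test in which 1.55% of all genes passed in that direction. The step from 11.5 dpc, and this growth, cannot be told apart from the change of line and strain. The tests of this growth and of both single-day steps in XY supporting cells were added after the values of Ifitm3 were seen. Their p-values for Ifitm3 are therefore descriptions and not independent support.

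Markers of other cells were set beside these values. The median of the 10 germ cell markers was 5.28 to 5.42 in XX and 5.25 to 5.32 in XY supporting cells at 11.5 dpc, and 5.52 to 6.28 against 5.55 to 5.65 at 12.5 dpc, below the 9.52 or more of germ cell arrays. At 13.5 dpc it was 5.57 to 6.49 against 5.58 to 5.81. Of the 10 markers 0 passed between XX and XY supporting cells at 11.5 dpc and 1, Sycp3, was lower in XY cells at 12.5 dpc (-0.98) and 13.5 dpc (-1.27), the direction of Ifitm3. Of all genes 1.71%, 4.89% and 5.02% were lower in XY cells at the 3 stages. Single markers reached higher in XX than in XY supporting cells, with Sycp3 at 5.22 to 6.87 against 4.58 to 5.61 and Ddx4 at up to 6.75 against up to 5.88. Dppa3, in contrast, was higher in XY cells at 13.5 dpc once row sets were aligned (0.78), and it rose by 1.72 from 11.5 to 13.5 dpc in XY supporting cells, as did Dppa5a by 1.14. Over these days 2 of the 10 markers rose in XY and 1 in XX supporting cells (5 and 3 with row sets aligned). Their median differences were 0.37 and 0.41. Over all 19938 genes, 1315 rose in XY and 472 in XX supporting cells. With alignment 21.9% and 10.6% passed in either direction. Macrophage markers, of a cell type in which IFITM genes can be active, had medians of 5.69 to 6.17 over all supporting cell arrays, and 0 of 8 passed between the karyotypes at any stage. With row sets aligned 1 of the 8 was lower in XY cells at 12.5 dpc, where 27.8% of all genes then passed in either direction. From 11.5 to 13.5 dpc in XY supporting cells, however, where 2.27% of all genes fell, 2 of the 8 fell, Cx3cr1 (-0.69) and Tyrobp (-0.87). Of 5 megakaryocyte or platelet markers 2 fell as well, Pf4 (-2.28) and Ppbp (-1.56), and both had fallen by 12.5 dpc (-2.12 and -1.63), as Ifitm3 had. In XX supporting cells, where Ifitm3 differed by -0.37, 2 of the 5 also fell from 11.5 to 13.5 dpc, as did 345 of all 19938 genes. Between karyotypes 0 of the 5 passed at any stage, and with row sets aligned 1 was lower in XY cells at 12.5 dpc. Pregranulosa markers, in contrast, separated the same groups, with medians of 9.27 to 10.24 in XX and 6.45 to 7.73 in XY supporting cells, and Sertoli markers had medians of 9.67 to 9.84 in XY supporting cells at 12.5 dpc against 6.66 to 6.93 in XX cells. Stromal markers had medians of 7.22 to 7.47 in XY against 6.42 to 6.95 in XX supporting cells at 12.5 dpc, and 3 measured erythroid markers 7.58 to 8.02 against 6.88 to 7.40. Gene by gene, 2 of the 8 stromal markers were higher and 1 lower in XY cells, with a median difference of -0.05. Of the 3 erythroid markers 1 was higher and 0 lower. Over all 19938 genes, 1691 were higher and 974 lower. The part of these cells in the Ifitm3 values was not tested.

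Other IFITM genes, which encode related antiviral membrane proteins, were set beside Ifitm3. Ifitm1 stood at 12.62, 12.52 and 12.52 in XX and 12.40, 12.29 and 12.23 in XY supporting cells at 11.5 dpc. In XY supporting cells it stood at 11.06, 11.45 and 11.45 at 12.5 dpc and at 9.25, 9.57 and 9.45 at 13.5 dpc, with no overlap between the stages. XX supporting cells lay between 12.21 and 12.91 at these later stages, above all of them. Ifitm1 fell by 1.90 ± 0.20 from 12.5 to 13.5 dpc in XY supporting cells (limma adjusted p = 1.03e-08), a step that lies within the Sox9 line and in which Ifitm3 differed by 0.46 ± 0.25. By 12.5 dpc, however, Ifitm3 already stood at 6.39 to 6.97 in these cells, near the array medians of 6.54 to 7.01. The background level of its probe set was not tested, so a further fall may not have been measurable. A second Ifitm1 probe set averaged 11.55 at 12.5 dpc and 8.81 at 13.5 dpc in these cells.

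Ifitm2 averaged 10.72, 11.00 and 10.26 in XY supporting cells at the 3 stages and was lower than in XX cells at 13.5 dpc by -0.76 ± 0.20 (limma adjusted p = 0.00509). Ifitm7 was lower in XY cells at 11.5 dpc by -1.02 ± 0.22 (adjusted p = 0.00214). At 12.5 dpc Ifitm7 stood at 7.49, 7.46 and 7.59 in XY against 8.06, 8.41 and 8.43 in XX supporting cells. The karyotypes overlapped at 13.5 dpc. Of the 6 other IFITM genes 1, 2 and 2 were lower in XY supporting cells at the 3 stages and 0 higher. Of all genes 1.71%, 4.89% and 5.02% were lower. Whether probes of 1 IFITM gene also bind RNA of another was not tested. Of 10 measured genes of the wider interferon response, 1 was lower in XY than in XX supporting cells at 11.5 dpc, namely Bst2, a membrane protein gene (-0.86, adjusted p = 0.00768), with 3 at an unadjusted p under 0.05. None passed in limma at 12.5 or 13.5 dpc, with 2 at an unadjusted p under 0.05 at each. After alignment of row sets 3, 4 and 4 were lower in XY cells at the 3 stages and 0 higher. The share of all genes called in either direction at these stages was 3.32%, 13.4% and 12.2% without alignment and 8.62%, 27.8% and 25.7% with it. In germ cells Ifitm2 fell between 11.5 and 13.5 dpc in XX cells by 0.79 ± 0.20, and 0 of the 6 other IFITM genes passed in XY cells in limma, with 0 at an unadjusted p under 0.05. Of all genes 7.09% passed in that XY comparison.

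**Figure D4:**
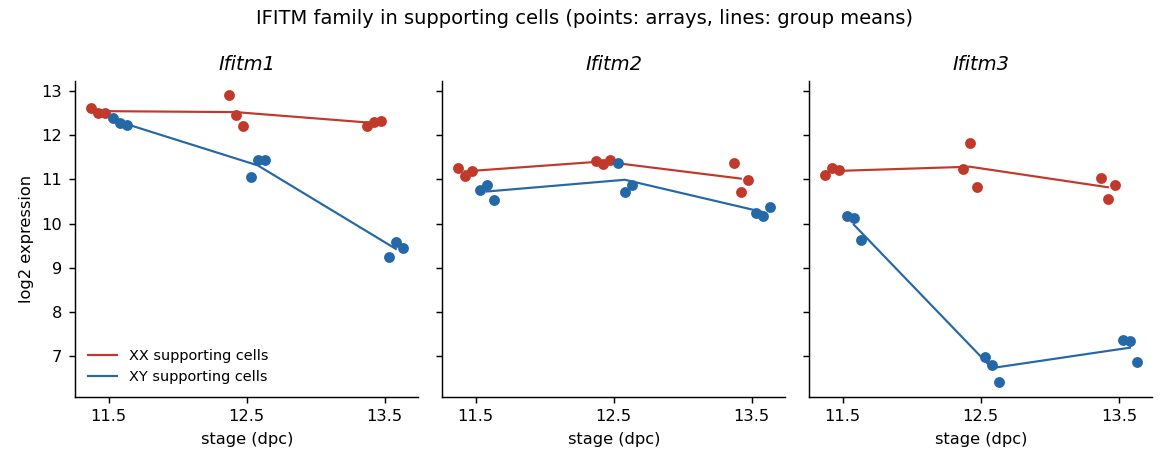
Deposited log2 level (y axis) of Ifitm1, Ifitm2 and Ifitm3 in supporting cells at the 3 stages (x axis, dpc), with red for XX and blue for XY, points for arrays and lines joining group means. Ifitm3 drops in XY cells between 11.5 and 12.5 dpc, Ifitm1 drops further between 12.5 and 13.5 dpc, and both stay high in XX cells.

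The windows around the annotated starts of these 3 genes are shown because they form the family part that differed in supporting cells at 13.5 dpc, by -3.64 for Ifitm3, -2.86 for Ifitm1 and -0.76 for Ifitm2 in XY against XX cells. They are RefSeq sequences of assembly GRCm38.p6, 5′ to 3′ on each gene's strand, from 250 bases before the start to 30 bases after it. Among the 5 genes a window was available for 2, Prdm1 and Ifitm3. Capitals mark matches, on either strand, of GAAANNGAA, a pair of half-sites of interferon regulatory factors, and of GAAAG, the core of the PRDM1 motif. The windows lie at chr7:141010715-141010994 on the minus strand for Ifitm3, chr7:140967826-140968105 on the plus strand for Ifitm1 and chr7:140955932-140956211 on the minus strand for Ifitm2.
Ifitm3: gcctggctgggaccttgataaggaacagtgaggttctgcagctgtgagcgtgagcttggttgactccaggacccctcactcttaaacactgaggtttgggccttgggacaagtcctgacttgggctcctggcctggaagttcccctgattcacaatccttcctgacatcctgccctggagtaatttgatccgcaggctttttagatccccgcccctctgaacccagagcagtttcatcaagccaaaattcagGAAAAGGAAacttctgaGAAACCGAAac
Ifitm1: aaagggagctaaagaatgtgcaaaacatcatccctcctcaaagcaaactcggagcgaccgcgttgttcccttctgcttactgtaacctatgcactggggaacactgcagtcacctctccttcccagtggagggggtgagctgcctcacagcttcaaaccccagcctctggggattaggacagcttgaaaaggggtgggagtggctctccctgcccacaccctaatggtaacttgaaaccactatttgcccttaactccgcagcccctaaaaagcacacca
Ifitm2: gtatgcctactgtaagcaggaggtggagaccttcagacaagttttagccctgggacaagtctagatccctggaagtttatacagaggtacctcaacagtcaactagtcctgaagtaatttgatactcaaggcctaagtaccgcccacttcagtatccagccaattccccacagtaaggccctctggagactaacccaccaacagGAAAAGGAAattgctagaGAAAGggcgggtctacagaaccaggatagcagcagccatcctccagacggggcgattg

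The Ifitm3 window held 2 matches of GAAANNGAA, which began at bases 3 and 20 of the transcribed part, counting the annotated start as 1. The Ifitm2 window held 1, starting 46 bases before the start, and the Ifitm1 window held 0. Of 32851 promoter windows of the same length, 8.06% held this motif. The GAAAG core occurred once in the Ifitm2 window and in 55.1% of all windows. AP-2 (GCCNNNGGC), found in 15.4% of windows, and the PRDM14 motif GGTCTCTAA, found in 0.25%, had 0 matches in the 3 IFITM windows and in that of Prdm1, which also held neither of the other motifs. A match is only a stretch of letters, and the absence of one says nothing of binding.

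The genes whose group means followed each of the 5 most closely were found by Pearson correlation over the 12 groups, among 7385 genes that spanned at least 1 between groups. The 12 points share arrays, strains and the large germ against supporting cell contrast, so these values are descriptions only. The pattern of Prdm1 was followed by Zfp640 (0.997), the adhesion gene Epcam (0.997) and the RNA-binding protein gene Elavl2 (0.996). That of Prdm14 was followed by the pluripotency-associated gene Dppa2 (0.995), Ndufaf4 (0.995) and Enpp3 (0.993), and that of Tfap2c by Gm9 (0.989), 1700019D03Rik (0.988) and the tight junction gene Cldn7 (0.988). For Itgb3 they were Zfp600 (0.993), Gm24148 (0.991) and Nampt (0.987). The likeness of Gm24148 dropped to 0.817 over the 35 single arrays. Ifitm3 had the loosest followers, with Arrb2, an arrestin gene, at 0.944, Gdap10 at 0.929 and Plekha5 at 0.928.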

How the data were processed

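The authors deposited log2 expression values per probe set for 36 Affymetrix arrays, per the submitters' processing notes by RMA, a background correction, between-array normalization and probe summary, with no version given in the sources used here. Of 35557 probe sets, 21789 had 1 gene symbol in the platform annotation, 1621 had several and 12147 were unnamed here. Where a gene had several probe sets (999 genes), the one with the highest mean was used. No filter on dim genes was applied.

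In 35 arrays the rows fell into 3 interleaved sets, each on its own linear scale, and in 1 array into 2 (107 sets, slopes 1.0099 to 1.059). No source used here says what made them. An alternative removed each slope and moved every set to 1 median.

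limma 3.58.1 in R 4.3.3 fitted 12 group means to 35 arrays with 23 residual degrees of freedom. Two-sided p-values were adjusted by Benjamini-Hochberg over 19938 genes in each of 21 comparisons, 3 of them added after the values of Ifitm3 were seen. The ± values are moderated standard errors (SE), n is 3 arrays a group except 2 in XX germ cells at 12.5 dpc, and this number limits the precision. No batch is labelled. Labels do not say that replicate numbers pair samples, so no block was used. Over 16 comparisons checked, deviations from group means correlated at -0.52 to 0.2 between arrays of the same number. Comparisons with XX germ cells at 12.5 dpc had only 2 such pairs. The fit was tested on simulated data.

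Named genes were the 5 genes, the 3 closest in pattern to each and up to 4 per list and comparison. Genes outside that rule (Ifitm1, Ifitm2 and Ifitm7 in supporting cells, Kit and Alpl between karyotypes, genes gained or lost with row sets aligned, and those in the karyotype test over time) were chosen after their values were seen. The members and lists were chosen with earlier results of these data known. Alternatives were keeping the array left out, a replicate block, leaving out each array, centring, quantile normalization, aligned row sets, a filter on dim genes, all probe sets averaged, only the compared arrays and array weights. Python 3.11.15 with pandas 2.3.3 and matplotlib 3.10.9 handled tables and plots.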

Additional observations from a re-analysis of the deposited data

Results flagged for a closer look

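The lower level of Ifitm3 in XY than in XX supporting cells was larger at 13.5 dpc than at 11.5 dpc, and a direct test of the 2 differences passed (limma, -2.43 ± 0.35, adjusted p = 1.49e-06). This test was added after the values of Ifitm3 were seen, so its p-value describes the data and is not independent support. All 3 XY arrays lay below all 3 XX arrays at both stages. The XY cells of the later stage came from another reporter line and strain, so stage and line cannot be told apart.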

How the results depend on the processing

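Over 21 comparisons, 175 of 189 counts of changed genes kept within 1.5 times the main count under 9 other settings. The counts for germ against supporting cells (5) and for Ifitm3 alone between XX and XY supporting cells (1) were the same under all of them and when any single array was left out. Keeping the array with contrary markers changed the count from 1 to 0 for XY against XX germ cells at 13.5 dpc, from 0 to 1 for XX germ cells 12.5 against 11.5 dpc, from 2 to 0 for 13.5 against 12.5 dpc, from 5 to 3 for 13.5 against 11.5 dpc, and from 3 to 1 in XY germ cells. It also turned the Prdm1 difference of XX germ cells from 12.5 to 13.5 dpc to 0.28 (limma adjusted p = 0.689), the only reversal.

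Aligning the row sets gave 2 genes between germ cell karyotypes at 13.5 dpc and 2 for the change of that difference, and 1 gene each for XY germ cells 12.5 against 11.5 and 13.5 against 12.5 dpc. Among all genes 17.3%, 7.66%, 2.95% and 5.39% then passed, against 9.21%, 3.24%, 1.31% and 2.38% without alignment. Fitting only the compared arrays gave 1 gene, Tfap2c, in each of these last 2 steps, and alignment gave Tfap2c in the first and Prdm14 in the second. Array weights gave 1 gene for XX germ cells 13.5 against 12.5 dpc, 2 for XY supporting cells 12.5 against 11.5 dpc and 1 for 13.5 against 12.5 dpc. Apart from the alignment and the left-out array, the cause of these changes was not tested.

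Leaving out 1 array gave 0 to 1 gene between germ cell karyotypes at 13.5 dpc, 0 to 1 for XX germ cells 12.5 against 11.5 dpc, 0 to 3 for 13.5 against 12.5 dpc, 3 to 5 for 13.5 against 11.5 dpc, 0 to 1 for XY germ cells 13.5 against 12.5 dpc and 1 to 3 for 13.5 against 11.5 dpc. A replicate block changed the call of 0 of the 5 genes in 21 comparisons, with 5 genes still lower in XX germ cells from 11.5 to 13.5 dpc. Ranked over 35 arrays instead of 12 group means, likeness put Gm24148 at place 1114 for Itgb3.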
